A study of Homo sapiens with 6 samples.

Results

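Interferon-stimulated genes were followed in a breast cancer cell line that had been made to produce oncostatin M (OSM), a cytokine of the IL-6 family. The genes were a list of 54 symbols known to be induced by interferons, chosen by name and not by a threshold on the measured values. Earlier results of these data were known when the list was chosen, so its counts are a description. All 54 were found by gene symbol, DDX58 under its current symbol RIGI, each with 1 transcript cluster (the probes that the array averages into a single value for a gene), among 21448 transcript clusters on the array.

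The parental cells, MDA-MB-231, come from a human breast cancer of the triple-negative kind, which lacks the estrogen, progesterone and HER2 receptors. Both lines studied here derive from them by stable transfection with 2 μg of a pUNO1 plasmid, and both were kept under blasticidin at 10 μg/ml. MDA-MB-231-hC carries the empty pUNO1 plasmid and is the control. MDA-MB-231-hOSM carries pUNO1-hOSM, which expresses human OSM, so that these cancer cells made the cytokine themselves. No other agent is named in the labels. Each line was sampled in 3 sets that the labels number (n = 3 arrays per line, 6 arrays in all), and the series' design text states that the lines were grown alongside each other and sampled at passages that did not follow directly on one another. Separate transfections are not stated, and so a difference that arose between the lines during transfection or selection cannot be told apart from an effect of OSM, and p-values measure only the spread between these sets. The labels name TRIzol for the RNA, whereas the methods pair another kit with microarrays.

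Every value below is a log2 signal, on which a difference of 1 is 2-fold, and where 3 values are given for a line they belong to sets 1, 2 and 3 in that order. Array medians lay between 6.82 and 6.85. OSM itself read 5.06, 5.11 and 5.26 in MDA-MB-231-hC and 14.90, 14.82 and 14.69 in MDA-MB-231-hOSM. The arrays carry no detection calls, so the signals of 348 olfactory receptor genes, which these cells should not express, served as a guide, and a signal under their 95th percentile, 5.78, is described as below background. OSM in MDA-MB-231-hC was below it, so no exact fold is given. Of the markers fixed for triple-negative cells, VIM, CD44, EGFR, CAV1, MSN and FOSL1 were above background in both lines and ESR1 and PGR were below it. FOSL1 was called lower in MDA-MB-231-hOSM, at a log2 difference of -1.22 (adjusted p = 0.0043 by limma). GATA3, set down as low, read 6.74 to 7.43, and ERBB2 was not analysed here. Of 19 leukocyte markers, 16 were below background in MDA-MB-231-hC and 15 in MDA-MB-231-hOSM, with a mean over the list of 5.11 to 5.17 and 5.16 to 5.22, and 1, CD53, was called higher. CD79A, ITGAX and CD68 were above background in both lines, and CD68 read 12.19 to 12.70.

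A property of the values touches every result below. Within a set, the MDA-MB-231-hC and the MDA-MB-231-hOSM array departed from the means of their lines as mirror images, with correlations over all transcript clusters of -0.993, -0.995 and -0.992 in sets 1, 2 and 3. The median SD of the set means was 0.0076, against 0.225 for the differences between the lines over the sets. Where a gene's difference varied from set to set, it therefore cannot be told which of the 2 arrays of the set varied. No stated step removes variation between sets, and whether the values were adjusted for set before deposit is not given in the sources used here. If they were, single arrays of a set are not independent readings, which bears on the values by array and on the counts of non-overlap. For that reason differences were taken within sets, with the set as a block in limma's fit over all transcript clusters. Below, "called" means a Benjamini-Hochberg adjusted p under 0.1 in that fit together with a change of more than 2-fold, the pair of thresholds that the study's methods name.

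Interferons are secreted cytokines by which cells warn their neighbours of infection. Type I and type III interferons bind receptors whose kinases, JAK1 and TYK2, activate a complex called ISGF3, which contains IRF9 and binds the interferon-stimulated response element (ISRE) in promoters. Type II interferon acts mainly through another element, the gamma-activated site (GAS). OSM signals through receptors that share the gp130 subunit with IL-6 and that mainly activate STAT3. The products of interferon-stimulated genes bind or degrade viral RNA, guard membranes, sense nucleic acids, modify proteins with the ubiquitin-like ISG15, and amplify the signal.

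The promoters of these genes are shown first. Promoter letters were not used to choose the list. Since interferons act through the ISRE, a high share of its core goes with a list of interferon-induced genes and is no independent observation. RefSeq promoter windows (GRCh38.p14), of which the 250 bases before the annotated start were searched, were matched for 43 of the 54 genes. The search was for the letters GAAANNGAAA, the core of an ISRE, and TTCNNNGAA, the core of a GAS, on both strands. The ISRE core was found for 27 of 43 members (62.8%), against 3.71% of 27305 genes with a window. The GAS core was found for 13 of 43 members (30.2%), against 8.09% of those genes. A match is a run of letters and was not tested as a binding site, and which factor would bind it was not tested either.

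The stretches that follow were chosen to set genes that were called higher in MDA-MB-231-hOSM beside genes that were not, each with up to 20 bases on either side of the copy of the core nearest to the most upstream annotated start. They read 5′ to 3′ along the gene, and capitals mark the letters of every copy of the named core that falls in the stretch, on either strand, so that an ISRE core on the opposite strand shows its capitals as runs of T and C.

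Called higher:
IFIT1 (ISRE core, chr10:89392500-89392549, plus strand): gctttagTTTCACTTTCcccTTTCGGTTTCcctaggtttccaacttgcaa
IFIT3 (ISRE core, chr10:89327855-89327904, plus strand): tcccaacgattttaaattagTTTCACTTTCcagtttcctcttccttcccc
IFITM1 (ISRE core, chr11:313980-314029, plus strand): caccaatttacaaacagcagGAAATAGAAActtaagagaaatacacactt
IFITM3 (ISRE core, chr11:320866-320915, minus strand): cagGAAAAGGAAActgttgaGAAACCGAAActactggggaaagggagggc
DDX60 (ISRE core, chr4:168318776-168318825, minus strand): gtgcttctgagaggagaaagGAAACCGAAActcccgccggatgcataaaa
DDX60L (ISRE core, chr4:168480513-168480562, minus strand): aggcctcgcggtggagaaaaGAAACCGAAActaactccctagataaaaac
PLSCR1 (ISRE core, chr3:146544657-146544706, minus strand): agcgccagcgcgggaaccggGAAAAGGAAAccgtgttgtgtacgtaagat
SAMD9 (ISRE core, chr7:93118086-93118135, minus strand): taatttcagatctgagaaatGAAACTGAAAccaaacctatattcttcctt
IRF9 (GAS core, chr14:24161182-24161230, plus strand): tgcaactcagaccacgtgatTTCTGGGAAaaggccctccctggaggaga
GBP3 (GAS core, chr1:89022867-89022901, minus strand): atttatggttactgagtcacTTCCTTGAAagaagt

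Not called:
ISG15 (ISRE core, chr1:1013370-1013419, plus strand): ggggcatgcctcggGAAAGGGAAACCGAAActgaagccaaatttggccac
IFIT5 (ISRE core, chr10:89414529-89414567, plus strand): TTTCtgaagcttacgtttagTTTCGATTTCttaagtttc
OAS3 (ISRE core, chr12:112938442-112938473, plus strand): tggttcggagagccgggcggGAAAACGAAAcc
HERC5 (ISRE core, chr4:88457025-88457074, plus strand): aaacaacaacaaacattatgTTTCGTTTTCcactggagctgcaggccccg
BST2 (ISRE core, chr19:17405725-17405774, minus strand): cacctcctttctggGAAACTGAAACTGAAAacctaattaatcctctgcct
IFI27 (ISRE core, chr14:94110621-94110670, plus strand): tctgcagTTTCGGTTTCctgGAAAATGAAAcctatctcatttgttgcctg
IFI44 (ISRE core, chr1:78649751-78649788, plus strand): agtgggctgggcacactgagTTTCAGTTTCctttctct

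An ISRE core was seen in stretches of both kinds. The stretches labelled GAS, those of IRF9 and GBP3, are of called genes only. Members with a GAS core that were not called, among them IRF1, OAS1 and IFI35, have no such stretch printed. An ISRE core was present in 10 of 16 called members with a window (62.5%) and in 17 of 27 members that were not called (63.0%). The letters GAAACCGAAA, read in the direction of the core, made up the copy nearest to the start in 6 members, of which DDX60, DDX60L, IFIT1 and IFITM3 were called and EPSTI1 and ISG15 were not. The letters GAAACTGAAA did so in 6 others, of which SAMD9 was called and BST2, GBP1, IFI44, ISG20 and RTP4 were not. MX1, PARP9 and RSAD2, whose ISRE core lay only before another annotated start, are not in these counts by letters. The GAS core was present in 6 of 16 called members (37.5%) and 7 of 27 others (25.9%), and no test was made of these shares. Both cores were found for 7 members and neither for 10, of which 3 were called. In BST2, EPSTI1, IFI27 and MX1 a copy of one core overlapped a copy of the other.

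In the MDA-MB-231-hOSM cells, 21 of the 54 interferon-stimulated genes were called higher (38.9%), between 2.20-fold for DDX60 and 7.78-fold for MX2, and 0 were called lower. Across the array 557 of 21448 transcript clusters were called higher, 2.6%, and 336 were called lower, 1.57%. Since the list was chosen with earlier results known, the contrast between these shares was not tested. Most members were expressed well enough to be seen, with 42 above background in both lines, 10 below it in both and 2 in 1 line. Among the 12812 transcript clusters whose mean was above background, 3.81% were called higher. Of the 21 called members, 20 were above background in both lines, and MX2 was so only in MDA-MB-231-hOSM.

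The list as a whole lay towards higher values. The median log2 difference of the 54 genes was 0.71 and the mean 0.75, against a median of -0.03 over all transcript clusters, and 45 differences were positive and 9 negative, from -0.96 for OAS1 to 2.96 for MX2. All 3 MDA-MB-231-hOSM arrays lay above all 3 MDA-MB-231-hC arrays for 34 members, a separation seen for 22.2% of all transcript clusters, and below them for 4 (OAS1, OAS3, EIF2AK2 and CMPK2), seen for 27.7%. For the other 16 the lines overlapped. On the adjusted p alone, with no fold limit, 29 members were higher and 2 lower (OAS1 and EIF2AK2), against 9.22% and 10.4% of all transcript clusters. The 8 members that were higher on the adjusted p but changed less than 2-fold were OAS2, GBP1, IRF7, SAMD9L, EPSTI1, IFI6, IFI44 and IFI44L. Of these, IRF7, EPSTI1 and IFI44L were below background in both lines.

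**Figure D1:**
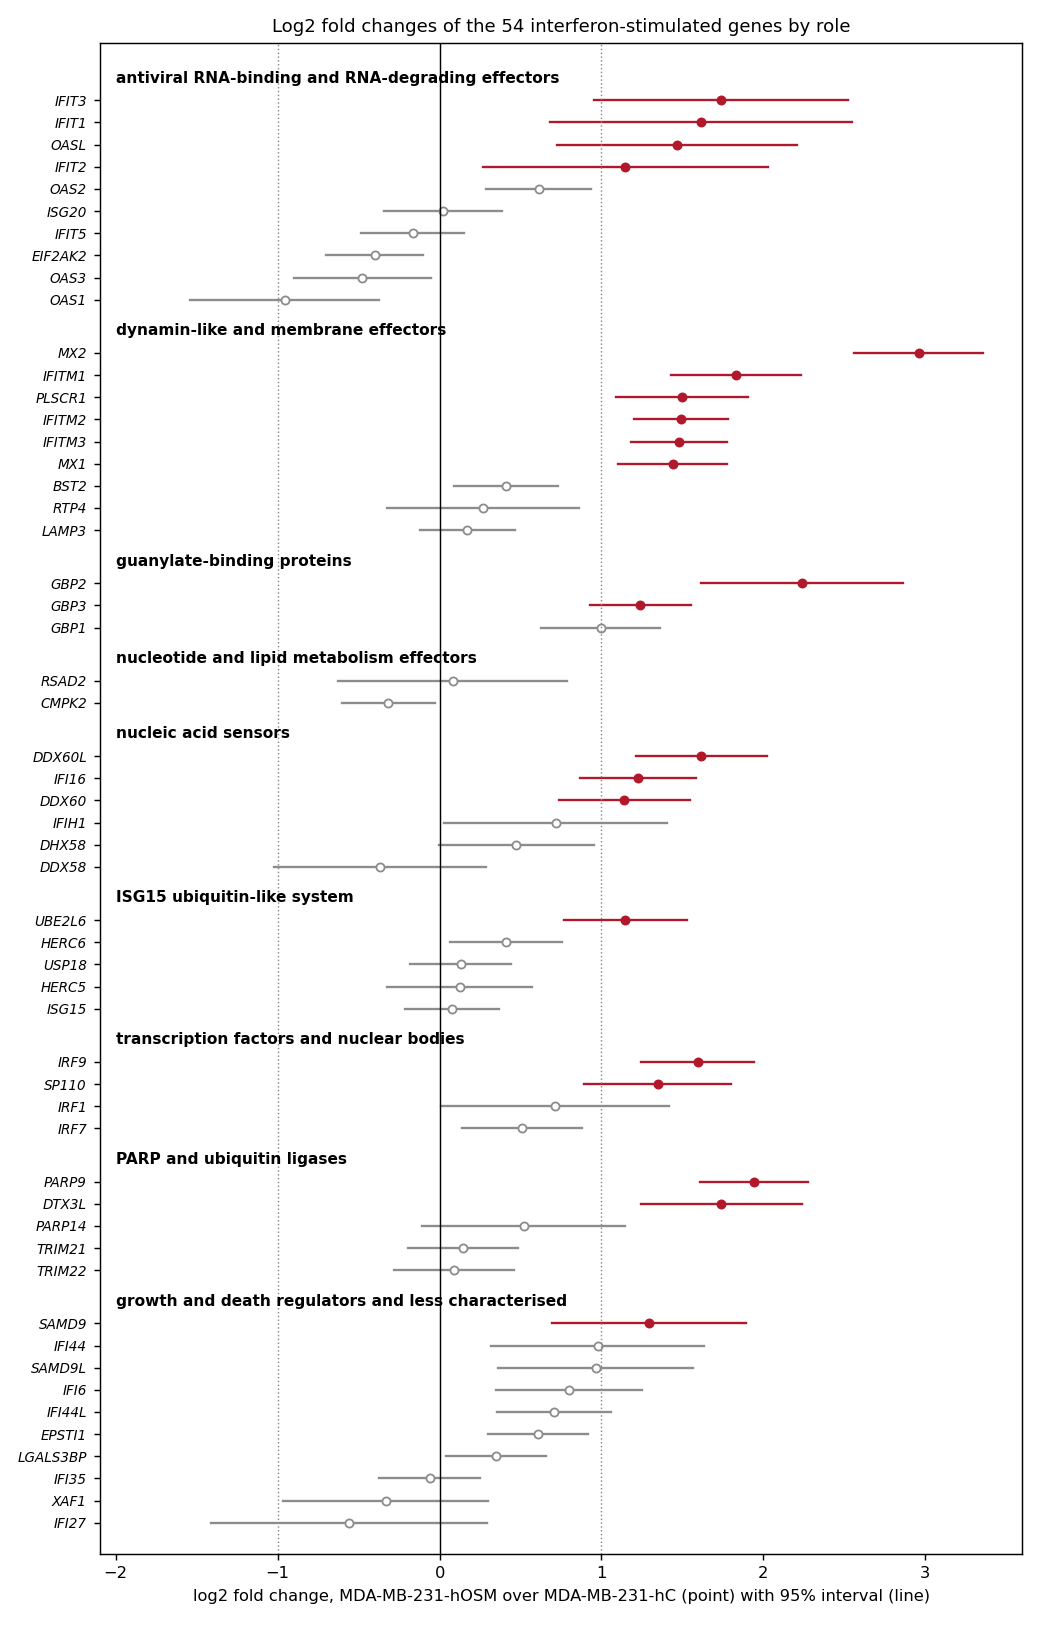
Log2 difference, MDA-MB-231-hOSM minus MDA-MB-231-hC, of all 54 interferon-stimulated genes, grouped by role, with called genes filled; points are estimates from limma's fit with the set as a block and bars are 95% confidence intervals (n = 3 arrays per line). The 21 called genes lie to the right of a log2 difference of 1, and none is called to the left.

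Of 9 membrane and dynamin-like effectors, 6 were called higher (66.7%), against 2.6% of all transcript clusters. MX1 and MX2 are dynamin-like GTPases that block the replication of many viruses. MX2 read 4.41, 4.07 and 4.14 in MDA-MB-231-hC, below background, and 6.96, 7.31 and 7.23 in MDA-MB-231-hOSM. MX1 read 7.07, 7.24 and 7.00 against 8.52, 8.44 and 8.67. Both genes were thus separated in every set by more than 1 on the log2 scale. The log2 difference was 2.96 for MX2 (SE 0.17, adjusted p = 0.0004 by limma) and 1.44 for MX1 (SE 0.14, adjusted p = 0.0024).

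The IFITM proteins sit in cell and endosomal membranes and hinder the fusion of enveloped viruses. IFITM1 read 12.69, 13.07 and 12.79 in MDA-MB-231-hC and 14.82, 14.49 and 14.73 in MDA-MB-231-hOSM. IFITM2 read 13.74, 13.82 and 13.83 against 15.34, 15.27 and 15.26. IFITM3 read 14.53, 14.66 and 14.57 against 16.11, 16.01 and 16.08. The lines did not overlap for any of the 3 genes, a separation upward seen for 22.2% of all transcript clusters. The difference was at least 1.35 in every set. Their log2 differences were 1.83 (SE 0.17), 1.49 (SE 0.12) and 1.48 (SE 0.12), with adjusted p of 0.0019, 0.0012 and 0.0014 by limma. The IFITM genes are related in sequence, and how far the probes of one read the others was not tested, so the separate values are uncertain.

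PLSCR1, phospholipid scramblase 1, which restricts viral entry, read 9.78, 9.48 and 9.41 against 10.85, 11.13 and 11.18, a log2 difference of 1.50 (SE 0.17, adjusted p = 0.0041 by limma). The 3 members of this group that were not called were BST2, a tether that holds budding virions, at 0.41 (adjusted p = 0.102), RTP4 at 0.27 and LAMP3 at 0.17, the last 2 below background in both lines.

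Among effectors that bind or degrade viral RNA, 4 of 10 were called higher (40%), against 2.6% of all transcript clusters. They were 3 IFIT genes and OASL. IFIT1, IFIT2 and IFIT3 form a complex that recognises viral RNA ends. IFIT1 read 11.13, 10.35 and 10.02 in MDA-MB-231-hC and 11.48, 12.28 and 12.58 in MDA-MB-231-hOSM. IFIT2 read 12.03, 11.67 and 10.96 against 12.23, 12.60 and 13.27. IFIT3 read 11.45, 11.19 and 10.55 against 12.39, 12.69 and 13.32. No array of one line overlapped the other, a separation upward seen for 22.2% of all transcript clusters. The difference was smallest in set 1 and largest in set 3 for all 3 genes. The log2 differences were 1.61 (SE 0.39, adjusted p = 0.0455), 1.15 (SE 0.37, adjusted p = 0.0966) and 1.74 (SE 0.32, adjusted p = 0.0227) by limma, and all 3 calls were lost when set 2 or set 3 was left out, and that of IFIT2 also without set 1 or without either array of set 3. IFIT5, which is also an RNA-binding IFIT protein, was not called, at -0.17 (adjusted p = 0.455, 95% confidence interval -0.48 to 0.15).

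Of the OAS genes, OASL alone was called. OAS1, OAS2 and OAS3 make 2′-5′ oligoadenylate, the messenger that activates RNase L, whereas OASL lacks that activity and boosts RIG-I signalling. OASL read 8.75, 7.93 and 8.03 against 9.21, 9.99 and 9.91, a log2 difference of 1.47 (SE 0.31, adjusted p = 0.0318 by limma), which was no longer called without set 2 or set 3. OAS1 read 5.80, 6.08 and 5.41 against 4.77, 4.51 and 5.14, with MDA-MB-231-hOSM lower in every set. The lines did not overlap, a separation downward seen for 27.7% of all transcript clusters, and both means were below background. Its log2 difference was -0.96 (SE 0.24, adjusted p = 0.0525 by limma), just short of 2-fold, and it was called lower when set 3, or either array of it, was left out. OAS2 was at 0.61 (adjusted p = 0.0358) and OAS3 at -0.48 (adjusted p = 0.134). The other members of this group were EIF2AK2, the kinase PKR that halts translation on double-stranded RNA, at -0.40 (adjusted p = 0.0901), and ISG20, an exonuclease, at 0.02.

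**Figure D2:**
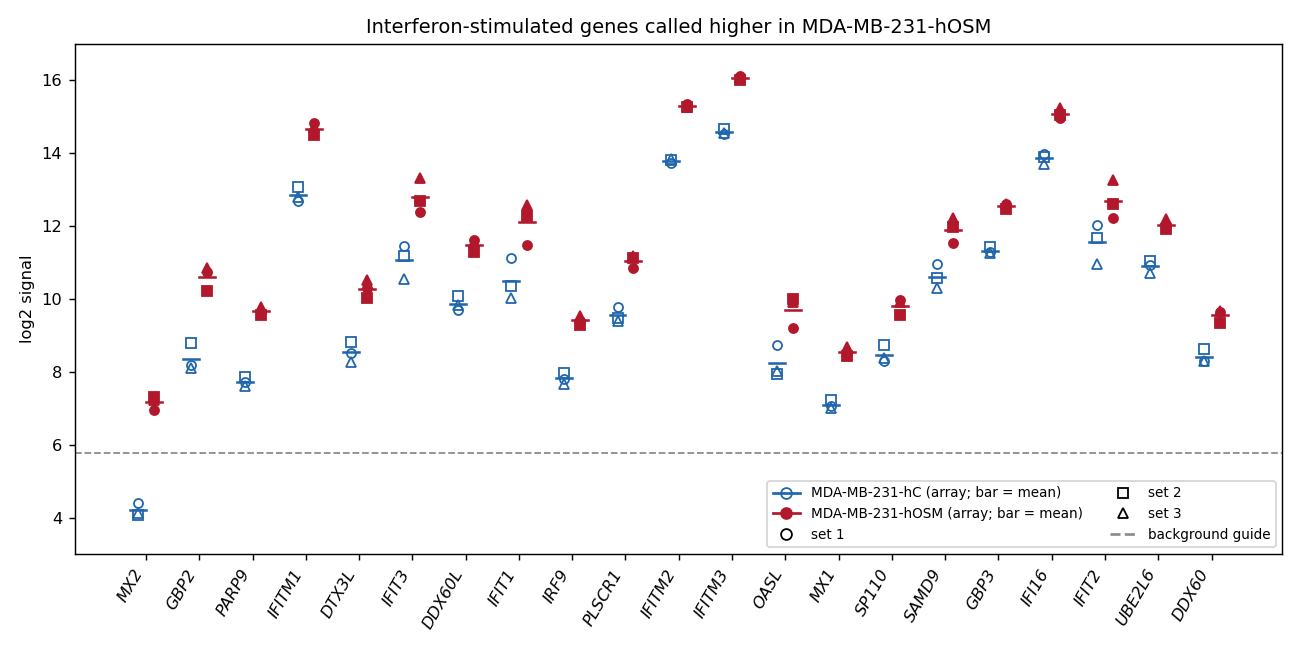
Log2 signal of the 21 called interferon-stimulated genes on each of the 6 arrays; points are single arrays, coloured by line and shaped by set, the short bars are the means of a line, and the dashed line is the background guide of 5.78. In every gene the 3 MDA-MB-231-hOSM arrays lie above the 3 MDA-MB-231-hC arrays, a separation seen for 22.2% of all transcript clusters.

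The list holds 3 guanylate-binding proteins, GTPases that coat the vacuoles of intracellular pathogens. All 3 were higher on every MDA-MB-231-hOSM array, a separation seen for 22.2% of all transcript clusters. Of these genes 2 were called higher (66.7%), against 2.6% of all transcript clusters. GBP2 read 8.20, 8.79 and 8.10 in MDA-MB-231-hC and 10.75, 10.21 and 10.84 in MDA-MB-231-hOSM. GBP3 read 11.28, 11.43 and 11.27 against 12.60, 12.48 and 12.62. Both were separated by at least 1.05 in every set. The log2 difference was 2.24 for GBP2 (SE 0.26, adjusted p = 0.0044 by limma), a 4.71-fold change, and 1.24 for GBP3 (SE 0.13, adjusted p = 0.0031). GBP2 was no longer called without set 3. GBP1 read 9.86, 10.06 and 10.16 against 11.18, 11.01 and 10.88, and at a log2 difference of 0.997 (SE 0.15, adjusted p = 0.0119) it fell just short of the fold limit. Outside the list of members, GBP4 was called higher at 1.72 (adjusted p = 0.0111 by limma). GBP5, also outside it, was not called, at 0.26 (adjusted p = 0.493) with overlapping lines and signals below background.

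RSAD2 and CMPK2, neighbouring genes for viperin and for a mitochondrial nucleotide kinase, were below background in both lines. RSAD2 read 5.63, 5.03 and 4.85 in MDA-MB-231-hC and 4.78, 5.37 and 5.60 in MDA-MB-231-hOSM. CMPK2 read 4.64, 4.60 and 4.56 against 4.24, 4.29 and 4.32. Neither was called. RSAD2 was higher in MDA-MB-231-hC in set 1 and lower in the other sets, a log2 difference of 0.08 (SE 0.29, adjusted p = 0.882), and CMPK2 stood at -0.32 (adjusted p = 0.142). At these signals a difference in either gene may not be detectable.

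Of 6 sensors of nucleic acids, 3 were called higher (50%), against 2.6% of all transcript clusters. DDX60 and DDX60L are neighbouring helicase genes, and DDX60 is a cofactor of RIG-I-like receptors. DDX60 read 8.29, 8.63 and 8.31 against 9.65, 9.34 and 9.66. DDX60L read 9.71, 10.09 and 9.83 against 11.63, 11.29 and 11.56. IFI16, a nuclear sensor of DNA, read 13.97, 13.91 and 13.70 against 14.97, 15.04 and 15.24. None of the 3 overlapped between the lines, a separation upward seen for 22.2% of all transcript clusters. The log2 differences were 1.14 (SE 0.17, adjusted p = 0.0106), 1.62 (SE 0.17, adjusted p = 0.0031) and 1.22 (SE 0.15, adjusted p = 0.0052) by limma, and DDX60 was no longer called without set 1 or set 3. The RIG-I-like receptors themselves were not called. DDX58, which encodes RIG-I, stood at -0.37 (adjusted p = 0.426), IFIH1, which encodes MDA5, at 0.72 (adjusted p = 0.159), and DHX58 at 0.47 (adjusted p = 0.177).

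The ISG15 system, which attaches ISG15 to other proteins, gave 1 call in 5 (20%), against 2.6% of all transcript clusters called higher. UBE2L6, the conjugating enzyme for ISG15, read 10.93, 11.05 and 10.71 in MDA-MB-231-hC and 12.01, 11.91 and 12.21 in MDA-MB-231-hOSM, a log2 difference of 1.15 (SE 0.16, adjusted p = 0.0082 by limma) that was no longer called without set 3. ISG15 itself read 6.24, 6.28 and 6.18 against 6.31, 6.27 and 6.35. The lines overlapped for ISG15, and the log2 difference of 0.08 had a 95% confidence interval of -0.21 to 0.37, which leaves out a 2-fold change in signal. These signals were above the background guide of 5.78 but below the array medians of 6.82 to 6.85. Low signals are compressed on these arrays, so a change in ISG15 may be understated. The ISG15 ligase HERC5 stood at 0.12 and USP18, which removes ISG15 and dampens the type I receptor, at 0.13 with a signal below background. HERC6, a related ligase, read 8.95, 8.77 and 8.69 against 9.08, 9.24 and 9.32, a log2 difference of 0.41 (SE 0.14, adjusted p = 0.119).

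Among transcription factors and nuclear body genes, 2 of 4 were called higher (50%), against 2.6% of all transcript clusters. IRF9, the DNA-binding subunit of ISGF3, read 7.81, 7.97 and 7.68 against 9.40, 9.30 and 9.54. SP110, a nuclear body protein, read 8.29, 8.75 and 8.37 against 9.96, 9.57 and 9.92. Both were separated by at least 0.82 in every set. The log2 difference was 1.59 for IRF9 (SE 0.14, adjusted p = 0.0019 by limma) and 1.35 for SP110 (SE 0.19, adjusted p = 0.0089), and SP110 was no longer called without set 3. IRF1, the factor induced through GAS elements, was at 0.71 (adjusted p = 0.169) and had its largest difference in set 3, reading 6.32, 6.43 and 5.63 against 6.68, 6.55 and 7.29. IRF7, which amplifies type I interferon production, was below background in both lines at 0.51 (adjusted p = 0.0848).

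PARP9 and DTX3L, whose products form a complex of an ADP-ribosyltransferase family protein and a ubiquitin ligase, were called together among 5 genes of this role. That is 40% of the group, against 2.6% of all transcript clusters called higher. PARP9 read 7.71, 7.85 and 7.61 in MDA-MB-231-hC and 9.65, 9.56 and 9.78 in MDA-MB-231-hOSM. DTX3L read 8.52, 8.83 and 8.28 against 10.31, 10.02 and 10.52. Both differences passed 1 in every set. The log2 difference was 1.94 for PARP9 (SE 0.14, adjusted p = 0.0008 by limma) and 1.74 for DTX3L (SE 0.21, adjusted p = 0.0049). PARP14, an ADP-ribosyltransferase, was at 0.52 with overlapping lines, TRIM21, a cytosolic antibody receptor, at 0.15, and TRIM22 at 0.09.

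Of 10 regulators of growth and death and less characterised genes, 1 was called higher (10%), against 2.6% of all transcript clusters. SAMD9, a restriction factor for poxviruses, read 10.96, 10.57 and 10.31 against 11.53, 11.97 and 12.22, a log2 difference of 1.29 (SE 0.25, adjusted p = 0.0245 by limma) that was no longer called without set 2 or set 3. IFI44 read 8.60, 7.85 and 8.11 against 8.75, 9.50 and 9.24, and at 0.98 (SE 0.27, adjusted p = 0.0694) it was under the fold limit. SAMD9 and IFI44 both had their smallest difference in set 1. SAMD9L at 0.96, IFI6 at 0.80, IFI44L at 0.71 and EPSTI1 at 0.61 passed on the adjusted p alone, with values of 0.0559, 0.0428, 0.0304 and 0.0319. IFI44L and EPSTI1 were below background in both lines. LGALS3BP, a secreted glycoprotein, was at 0.35, IFI35 at -0.06 and XAF1, which promotes apoptosis, at -0.33. IFI27 was at -0.56 (adjusted p = 0.352) and changed sign between sets, reading 7.77, 7.30 and 6.76 against 6.19, 6.71 and 7.25.

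The differences of these genes were often largest in set 3. The median over the 54 members was 0.385 in set 1, 0.635 in set 2 and 0.915 in set 3. The largest of the 3 differences lay in set 3 for 33 members (61.1%), against 34.3% of all transcript clusters and 47.6% of those called higher, and the smallest lay in set 3 for 6 (11.1%). These shares are a description, since the genes share the same 6 arrays. Among called genes that varied over the sets, the within-set differences were 0.35, 1.93 and 2.56 for IFIT1, 0.20, 0.93 and 2.31 for IFIT2 and 0.94, 1.50 and 2.77 for IFIT3. OASL had 0.46, 2.06 and 1.88. By contrast MX1 had 1.45, 1.20 and 1.67, PARP9 1.94, 1.71 and 2.17, and IRF9 1.59, 1.33 and 1.86.

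The 33 members with their largest difference in set 3 are, by definition, those in the orders of the sets that end in set 3. The difference grew from set 1 to set 2 to set 3 in 14 members (25.9%, against 17.4% of all transcript clusters), among them IFIT1, IFIT2, IFIT3, PLSCR1, IFI16 and SAMD9. It was smallest in set 2 and largest in set 3 in 19 members (35.2%, against 17.9%), among them MX1, GBP2, GBP3, UBE2L6, IRF9, PARP9 and DTX3L. The sets are numbered in the labels without a stated order of passage, and the part of culture or array handling in these shares was not tested. Over the sets, 34 members were higher in all 3, 4 were lower in all 3 and 16 were mixed. Of all transcript clusters, 22.2% were higher in all 3 sets and 27.8% were lower in all 3. A difference of more than 1 in every set was seen for 12 of the 21 called genes. The same held for 356 of the 557 transcript clusters called higher across the array.

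**Figure D3:**
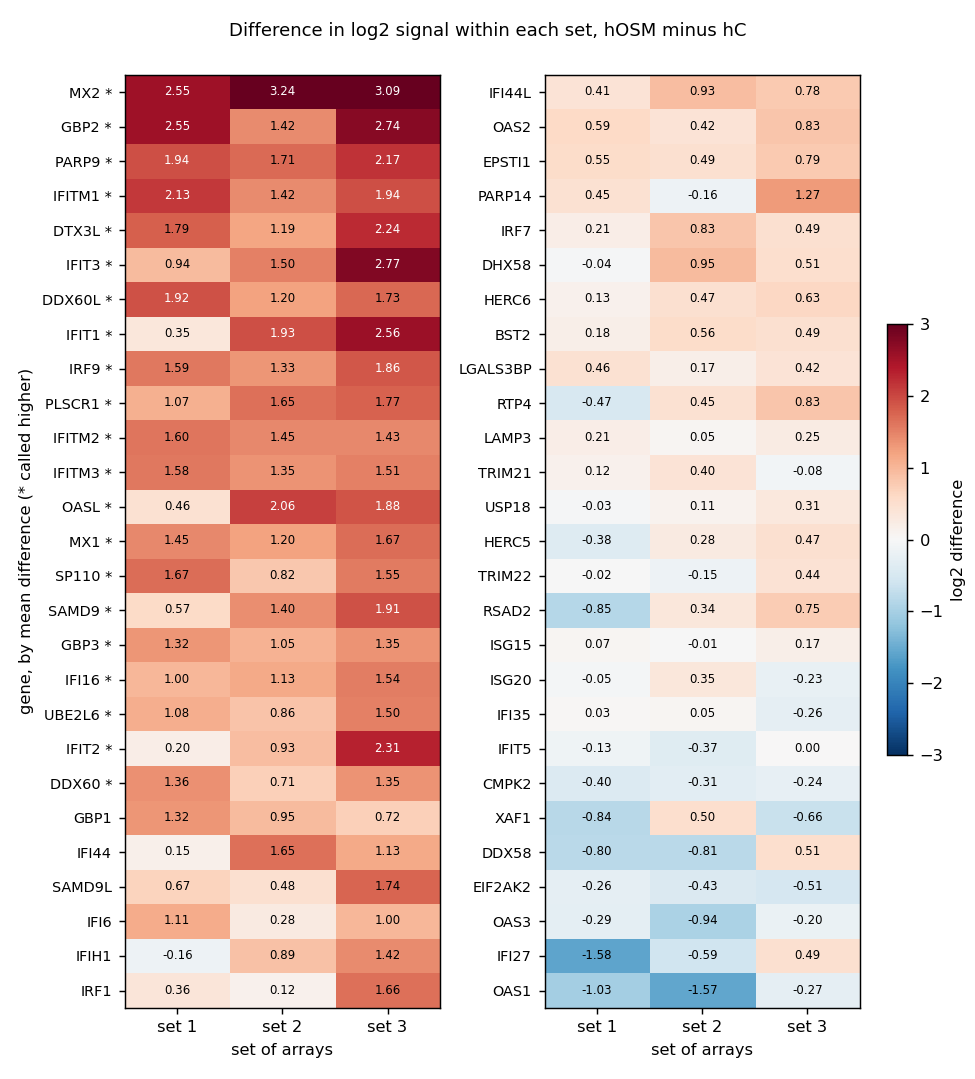
Log2 difference within each set, MDA-MB-231-hOSM minus MDA-MB-231-hC, for the 54 interferon-stimulated genes (rows, ordered by the mean difference, called genes with a star) in sets 1, 2 and 3 (columns), with colour and number giving the difference. IFIT1, IFIT2, IFIT3 and OASL have their smallest differences in set 1 (0.20 to 0.94), whereas PARP9 differs by 1.71 to 2.17 over the sets.

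Genes that lie close together on a chromosome did not always share a call. In RefSeq order 28 members form 11 groups with at most 1 other protein-coding gene between neighbouring members, and such a gene is present in the IFIT group and in that of PARP9, DTX3L and PARP14. All members were called in 3 groups, namely IFITM1, IFITM2 and IFITM3 on chromosome 11, MX1 and MX2 on chromosome 21, and DDX60 and DDX60L on chromosome 4. None was called in 4 groups, namely OAS1, OAS3 and OAS2 on chromosome 12, IFI44L and IFI44 on chromosome 1, CMPK2 and RSAD2 on chromosome 2, and HERC6 and HERC5 on chromosome 4. The other 4 were split, with 3 of 4 IFIT genes on chromosome 10, 2 of 3 GBP genes on chromosome 1, PARP9 and DTX3L but not PARP14 on chromosome 3, and SAMD9 but not SAMD9L on chromosome 7.

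Most interferon ligands were at background. Of 21 measured ligand genes, 19 were below background in both lines, and IFNB1 read 4.68, 4.29 and 4.51 in MDA-MB-231-hC and 4.38, 4.76 and 4.56 in MDA-MB-231-hOSM. The lines overlapped for IFNB1, at a log2 difference of 0.07 (SE 0.17, adjusted p = 0.811 by limma). The only ligand called (4.76% of those measured, against 2.6% of all transcript clusters) was IFNK, an interferon known from keratinocytes. IFNK read 3.15, 3.27 and 3.38 against 5.01, 4.88 and 4.77, a difference of 1.62 (SE 0.14, adjusted p = 0.0016) between signals that are all below the guide. Interferon protein was not measured.

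Of 9 measured receptor and kinase genes, 2 were called higher (22.2%) and none lower, against 2.6% and 1.57% of all transcript clusters. IFNAR2, a chain of the type I receptor, read 9.71, 9.98 and 10.03 against 11.28, 11.04 and 10.97. IL10RB, shared by the type III and IL-10 receptors, read 7.41, 7.68 and 7.42 against 8.99, 8.78 and 9.01. The log2 differences were 1.19 (SE 0.16, adjusted p = 0.0074) and 1.42 (SE 0.15, adjusted p = 0.0031) by limma. IFNAR1, the other type I chain, was at 0.64 (adjusted p = 0.0291) and below the fold limit, while JAK1, TYK2 and JAK2 stood at 0.21, -0.01 and 0.06.

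Among 18 further genes of nucleic acid sensing, 2 were called higher (11.1%) and none lower, against 2.6% and 1.57% of all transcript clusters. AIM2, a cytosolic DNA sensor of inflammasomes that is itself induced by interferon, read 8.01, 7.64 and 7.18 against 11.77, 12.22 and 12.62, a difference of 4.59 (SE 0.30, adjusted p = 0.0006 by limma). STING1, the adaptor downstream of the DNA sensor cGAS, read 10.50, 10.51 and 10.28 against 11.99, 11.97 and 12.21, a difference of 1.63 (SE 0.14, adjusted p = 0.0018). CGAS itself was at -0.51 (adjusted p = 0.0575), with every MDA-MB-231-hOSM array below every MDA-MB-231-hC array. Such a separation was seen for 27.7% of all transcript clusters.

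Of 15 measured genes that damp interferon signalling or clear self nucleic acid, 1 was called higher (6.67%), against 2.6% of all transcript clusters. SOCS3, a suppressor of cytokine signalling that is a known target of STAT3, read 4.92, 4.44 and 4.67 against 6.60, 7.09 and 6.82, a difference of 2.16 (SE 0.20, adjusted p = 0.0019 by limma) that started from below background. On the adjusted p alone, 5 genes of this list were higher and 3 lower, against 9.22% and 10.4% of all transcript clusters. All of these genes but SOCS3 were under the fold limit. Those higher were SOCS3, SOCS1, also a suppressor of cytokine signalling, at 0.91 (adjusted p = 0.0284), IRF2, a repressor of interferon responses, at 0.77 (adjusted p = 0.042), and the phosphatases PTPN2 at 0.57 (adjusted p = 0.036) and PTPN1 at 0.41 (adjusted p = 0.0737). Those lower were the 3 subunits of RNase H2, which removes RNA from DNA hybrids, with differences of -0.65 for RNASEH2A, -0.59 for RNASEH2B and -0.53 for RNASEH2C (adjusted p of 0.0321, 0.0401 and 0.0411). All 3 were lower on every MDA-MB-231-hOSM array, a separation seen for 27.7% of all transcript clusters. These genes were named after their values were seen.

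**Figure D4:**
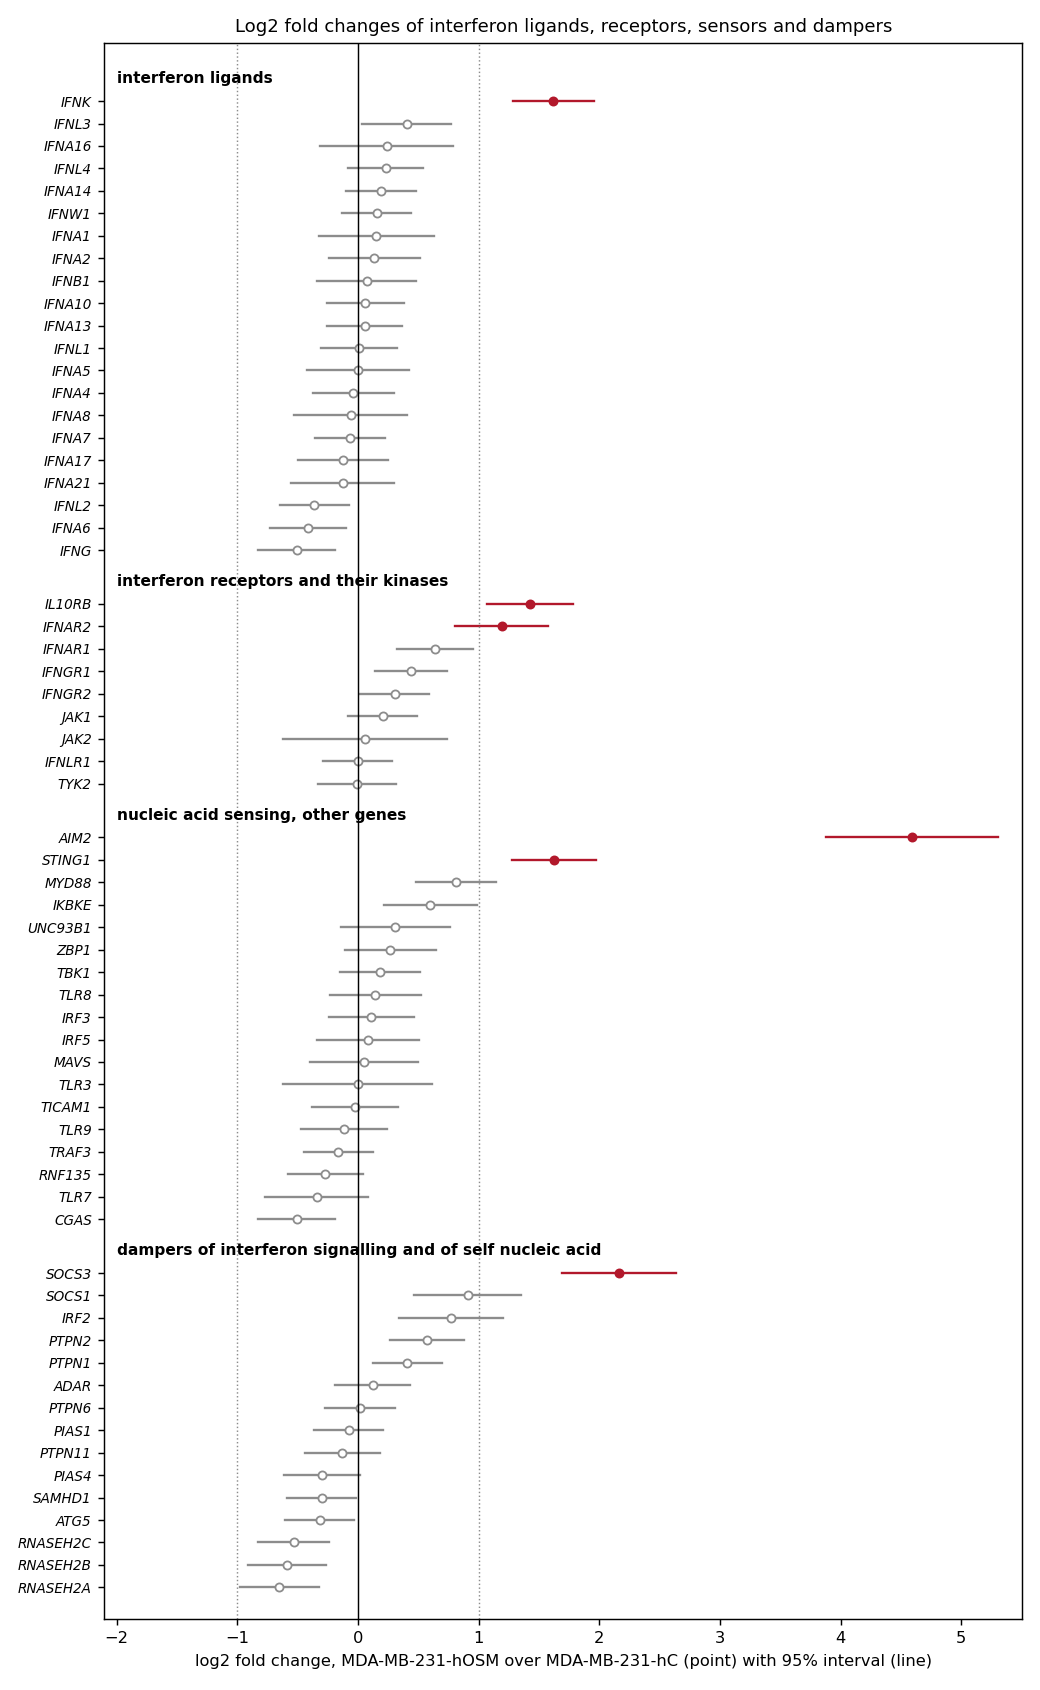
Log2 difference, MDA-MB-231-hOSM minus MDA-MB-231-hC, of genes around the interferon pathway, grouped as ligands, receptors and kinases, nucleic acid sensing and dampers, with called genes filled; points are estimates from limma's fit with the set as a block and bars are 95% confidence intervals (n = 3 arrays per line). AIM2 at 4.59 and SOCS3 at 2.16 lie farthest to the right, and IFNK is the only ligand past 1.

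A second list of other interferon-induced genes, with 52 measured, gave 13 called higher (25%) and 0 lower. The shares of all transcript clusters were 2.6% and 1.57%. The median log2 difference of this list was 0.39, against -0.03 over all transcript clusters. The list's largest changes were those of TNFSF10, the death ligand TRAIL, which read 7.51, 7.97 and 7.10 against 14.31, 13.98 and 14.76, and of CASP1, the inflammasome protease, which read 6.20, 6.12 and 6.20 against 8.74, 8.91 and 8.80. TNFSF10 differed by 6.82 (SE 0.29, adjusted p = 0.0002) and CASP1 by 2.64 (SE 0.12, adjusted p = 0.0002) by limma. SLFN5 followed at 2.52 and APOL1 at 2.16. CXCL10, a chemokine classically induced by interferon, was below background in both lines and stood at 0.02.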

How the data were processed

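Human Clariom S arrays measured RNA of the 2 transfected lines, 3 arrays each. The table deposited by the authors holds a log2 signal for every transcript cluster on every array, and the submitters' processing notes name RMA and the Transcriptome Analysis Console 4.0. Neither a library version nor a genome build is given in these notes or in the methods. RMA makes the arrays share nearly 1 distribution and compresses low signals. Arrays have no read depth, and their number limits the precision.

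The deposited log2 values were used unchanged. The means of the sets barely vary, and whether the values were adjusted for set before deposit is not stated. Groups and set numbers came from the labels. The platform annotation gave 1 symbol to 17709 of 21448 transcript clusters and none to 3739. Differences were fitted with limma 3.58.1 (R 4.3.3; lmFit, eBayes) over all transcript clusters with the set as a block, which leaves 2 residual degrees of freedom and 6.38 after moderation, and adjusted over all of them by Benjamini-Hochberg. Calls needed an adjusted p under 0.1 and more than 2-fold. Confidence intervals are unadjusted. The study's methods name no block. The set number comes from the labels, the series' design text states that both lines were grown alongside each other, and arrays of a set deviated as mirror images, with correlations of -0.993, -0.995 and -0.992.

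The members, their role groups and the 5 pathway lists (125 genes) were chosen with earlier results of these data known, so no list was tested. Values are given by array for every called member and for the 2 largest changes of each role group, and for up to 4 called genes of each pathway list. Other genes given by array, such as OAS1, GBP1, ISG15, IRF1 and IFI27, were chosen after their values were seen. Sequences are from RefSeq (GRCh38.p14). Alternatives were no block, quantile normalization, median centring, a background filter, trend and robust eBayes, no moderation, other thresholds, and each array or set left out.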

Additional observations from a re-analysis of the deposited data

How the results depend on the processing

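Without the set as a block, 21 members were called higher and 899 transcript clusters in all, against 21 and 893 with it. If the values were adjusted for set before deposit, which is not stated, the fit without the block counts too many degrees of freedom, and leaving out a single array does not remove its set's information. Without moderation of the variances 0 members were called, and 11 transcript clusters in all, although 20 members were higher and 2 lower at an unadjusted p under 0.05. Without a fold limit 4217 transcript clusters, 29 members higher and 2 lower were called. When arrays or sets were left out, the count of members called higher ranged from 13 to 23, of members called lower from 0 to 1, of all transcript clusters from 663 to 939, and the members' median from 0.52 to 0.78. Without set 3, 12 of the 21 calls were kept, and IFIT1, IFIT2, IFIT3, OASL, GBP2, DDX60, UBE2L6, SP110 and SAMD9 were lost. Fewer arrays also leave fewer degrees of freedom, and what else moved the counts was not tested. The median was 0.98 over the 43 members with a mean above background. Quantile normalization gave 22 calls, with GBP1 added, median centring 21, the background filter 20 of 43 tested, and trend and robust settings, or an adjusted p under 0.05, 20 each, with IFIT2 lost. The difference of RSAD2, which is below background, ranged from -0.26 to 0.545 over the leave-outs and was negative without set 2 (-0.05), set 3 or either array of set 3 (-0.08 and -0.10). Choosing another transcript cluster could not be tried, as each member has 1.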
